A study of Homo sapiens with 6 samples.

Results

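Remote Myc peaks without an E-box or an AP-1 motif were examined in MDA-MB-231 cells, a human triple-negative breast cancer cell line, with and without TXNIP (thioredoxin interacting protein). A peak belonged to this class when its summit lay on chromosomes 1 to 22 or X, more than 50 kb from every transcription start site (TSS) that the GENCODE basic set gives to protein-coding transcripts, and when neither CACGTG nor TGACTCA or TGAGTCA was found within 50 bp of the summit on either strand. Of 62492 peaks on these chromosomes in the 4 Myc lists, 8167 met this rule, and 2499 further remote peaks had at least 1 of the motifs. Position and sequence alone chose the class, and peak number, strength and overlap between libraries were not used. GC content is not free of the rule, which removes promoters and certain words of the window in which GC was counted.

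Chromatin immunoprecipitation sequencing (ChIP-seq) with the Myc antibody D3N8F was done in parental MDA-MB-231 cells and in TKO cells, which lack TXNIP. There were 2 Myc libraries per cell line. TKO cells were made with CRISPR/Cas9 and isolated as clones from single cells, and the labels do not say which clone each library came from, so effects of TXNIP loss and of clonal isolation cannot be told apart. Both cell lines were grown in DMEM with fetal bovine serum, non-essential amino acids and antibiotics, and no drug treatment is named. Input chromatin of each cell line was the control and has no peak list here. A peak list does not show the TXNIP deletion, so the knockout could not be checked.

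Myc is a transcription factor of the basic helix-loop-helix leucine zipper family that binds DNA as a dimer with Max. The dimer prefers the palindromic E-box CACGTG and also binds variants of it, such as CATGTG and CACGCG. Most Myc binding lies at active promoters, and remote binding lies mainly at enhancers, where factors such as AP-1, TEAD and RUNX bind. ChIP-seq also recovers sites where a factor is held by other proteins or by open chromatin and has no motif of its own.

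The libraries were unequal. On chromosomes 1 to 22 and X, to which all comparisons are limited, the lists held 3719 and 5716 peaks in parental replicates 1 and 2. They held 27196 and 25861 in TKO replicates 1 and 2. The depth recovered from the lists, with an assumed genome size, was 26.4 and 22.2 M reads for the parental line and 19.9 and 13.0 M reads in TKO, so the longer lists came from the shallower libraries. The extension length of the reads, taken as the narrowest peak, was 140 and 151 bp for the parental line and 182 and 201 bp in TKO. List length, extension length and cell line cannot be told apart in this design. Many values that depend on list length were taken again with each list shortened to its 3719 most significant peaks. These are called lists of equal length below. The shares of peaks overlapped in the other cell line and of peaks with a neighbour within 10 kb were not taken again.

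The sequences within 50 bp of the summit show what such sites look like. They are reference sequence of GRCh37 (hg19), forward strand, 5′ to 3′, with matches of CATGTG or CACGCG (variant E-boxes), GGAATG (the core of the TEAD motif) and TGTGGT (the core of the RUNX motif) on either strand in capitals. The sites with a variant E-box that were found in all 4 libraries and ranked highest by mean fold percentile (the rank of a peak's fold within its own list, 100 being the highest) are given here because these words had the largest difference in percentage points between summits and flanks. These 4 were chosen after their values were seen. The nearest protein-coding TSS were those of TCF7L2, GPR31, RASA3 and PIK3R1.
TCF7L2 site, chr10:114833578-114833678: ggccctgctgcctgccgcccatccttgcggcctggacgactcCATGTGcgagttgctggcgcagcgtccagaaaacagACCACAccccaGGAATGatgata
GPR31 site, chr6:167631977-167632077: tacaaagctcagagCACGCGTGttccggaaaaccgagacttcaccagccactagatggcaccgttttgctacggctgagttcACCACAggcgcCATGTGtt
RASA3 site, chr13:114831026-114831126: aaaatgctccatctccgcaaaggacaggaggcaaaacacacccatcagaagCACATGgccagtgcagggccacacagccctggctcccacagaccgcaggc
PIK3R1 site, chr5:67729977-67730077: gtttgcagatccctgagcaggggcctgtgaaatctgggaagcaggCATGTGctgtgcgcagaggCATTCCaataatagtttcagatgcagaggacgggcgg
The TCF7L2 site lay in an intron of that gene, which encodes a transcription factor of Wnt signalling, 51.7 kb from the nearest TSS. It held a variant E-box, a RUNX word and a TEAD word in 1 window. The GPR31 site was intergenic and held both variant E-boxes. The authors' fold at the TCF7L2 site was 9.18 and 14.8 in the parental libraries and 15.2 and 18.5 in TKO.

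The 5 sites of highest mean percentile by fold among those found in all 4 libraries looked different. They are shown because they were the strongest members.
HHIPL2 site, chr1:222638971-222639071: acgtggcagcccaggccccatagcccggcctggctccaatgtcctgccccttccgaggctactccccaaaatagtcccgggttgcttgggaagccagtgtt
CHD2 site, chr15:93352612-93352712: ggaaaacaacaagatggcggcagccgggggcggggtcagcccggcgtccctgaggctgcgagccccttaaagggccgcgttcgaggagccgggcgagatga
NBPF24 site, chr1:147511042-147511142: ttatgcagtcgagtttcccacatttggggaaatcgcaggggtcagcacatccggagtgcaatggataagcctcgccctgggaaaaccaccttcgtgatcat
H3-7 site, chr1:149224058-149224158: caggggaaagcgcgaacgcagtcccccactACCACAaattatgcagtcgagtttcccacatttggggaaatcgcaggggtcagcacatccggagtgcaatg
KRBOX4 site, chrX:45711231-45711331: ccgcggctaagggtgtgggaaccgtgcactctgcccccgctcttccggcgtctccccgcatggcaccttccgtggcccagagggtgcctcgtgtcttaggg
No variant E-box was found in these 5 windows, and the H3-7 window alone held a RUNX word. Of the 5 sites, 4 had their summit within 1 kb of the TSS of a noncoding gene. The NBPF24 and H3-7 sites lay in the U1 small nuclear RNA genes RNVU1-9 and RNVU1-18, at 75 and 113 bp from their TSS. U1 is the spliceosome RNA that recognises the 5′ splice site. Their windows shared an identical run of 63 bases, so reads of the 2 genes may be placed at either, and their separate values are uncertain. The KRBOX4 site was 310 bp from the TSS of LINC02595 and 595 kb from the nearest protein-coding TSS. The CHD2 site was in an intron of FAM174B, 865 bp from a TSS of ENSG00000258922, and the HHIPL2 site was intergenic.

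The values at these sites were high in each library. At the HHIPL2 site the fold was 16.6 and 14.0 in parental replicates 1 and 2 and 27.7 and 23.4 in TKO replicates 1 and 2. At the CHD2 site it was 18.2 and 11.2 for the parental line and 31.8 and 26.3 in TKO. At the RNVU1-18 site it was 12.3 and 10.97 for the parental line and 23.2 and 17.6 in TKO. The TKO folds were above the parental folds at each of these 3 sites. Fold is the ratio of summit reads to local background in its own library and is not scaled between libraries.

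Among sites found in both TKO libraries and in no parental library, these were 4 of the 5 strongest by mean percentile.
LPA site, chr6:160941158-160941258: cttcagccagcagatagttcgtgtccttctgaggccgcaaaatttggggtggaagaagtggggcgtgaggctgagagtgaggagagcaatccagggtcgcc
TBC1D22A site, chr22:47525626-47525726: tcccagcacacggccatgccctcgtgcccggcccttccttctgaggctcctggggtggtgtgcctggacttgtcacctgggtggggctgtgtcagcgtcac
TMEM132D site, chr12:130015668-130015768: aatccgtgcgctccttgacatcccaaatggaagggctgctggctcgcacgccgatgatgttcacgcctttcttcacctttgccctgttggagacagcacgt
KLRB1 site, chr12:9600422-9600522: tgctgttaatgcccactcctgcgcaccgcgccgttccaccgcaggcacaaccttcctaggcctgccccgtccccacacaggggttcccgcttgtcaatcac
None of these 4 windows held a variant E-box, a TEAD word or a RUNX word. Here too 2 of the 4 summits lay close to the TSS of a noncoding gene. The LPA site was 93 bp from the TSS of LPAL2, a pseudogene related to LPA, with a fold of 12.4 and 16.9 in TKO replicates 1 and 2. The KLRB1 site was 353 bp from the TSS of DDX12P, with a fold of 12.6 and 12.5. The TMEM132D site lay in coding sequence of that gene and the TBC1D22A site in an intron.

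Sites found in both parental libraries and in no TKO library numbered only 14. The 5 strongest are given for contrast.
TIAM2 site, chr6:155371623-155371723: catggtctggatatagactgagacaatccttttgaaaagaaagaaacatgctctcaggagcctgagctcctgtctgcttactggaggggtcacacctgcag
MKLN1 site, chr7:130645213-130645313: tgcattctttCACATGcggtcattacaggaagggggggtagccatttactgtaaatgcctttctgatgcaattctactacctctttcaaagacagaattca
ATF7IP site, chr12:14369514-14369614: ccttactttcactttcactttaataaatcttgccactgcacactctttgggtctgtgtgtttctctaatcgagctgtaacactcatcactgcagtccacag
SOX9 site, chr17:69435005-69435105: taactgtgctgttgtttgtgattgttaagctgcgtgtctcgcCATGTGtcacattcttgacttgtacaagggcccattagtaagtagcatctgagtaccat
CCDC71L site, chr7:106358836-106358936: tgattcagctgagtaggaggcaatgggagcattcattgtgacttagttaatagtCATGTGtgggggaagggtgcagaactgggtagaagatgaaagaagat
A variant E-box was found in 3 of these 5 windows. The folds were 6.31 and 6.39 in parental replicates 1 and 2 at the TIAM2 site, at percentiles 66.8 and 73.8 of their lists, and 5.16 and 6.31 at the SOX9 site, which lay 682 kb from the TSS of SOX9, a transcription factor of epithelial progenitors. GC content within 100 bp of the summit was 39.8% to 46.3% at these 5 sites, against 48.3% to 69.2% at the 5 strongest sites of all 4 libraries.

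More remote peaks without either motif were called in TKO cells, in step with the longer lists. There were 304 and 821 of them in parental replicates 1 and 2 and 3709 and 3333 in TKO replicates 1 and 2, without overlap of the cell lines. Their mean was 562.5 ± 366 (SD, n = 2) in parental cells and 3521 ± 266 (SD, n = 2) in TKO, a ratio of 6.26. A two-sided exact permutation test returned p = 0.333, below which a comparison of 2 libraries with 2 cannot go. Parental replicate 2 weighs on the ratio, which was 11.6 without it. With lists of equal length the ratio was 0.725, in the opposite direction.

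As a share of each list, the class made up 8.17% (95% confidence interval 7.31% to 9.10%) and 14.4% (13.5% to 15.3%) of parental peaks and 13.6% (13.2% to 14.1%) and 12.9% (12.5% to 13.3%) of TKO peaks. Intervals are exact Clopper-Pearson intervals and cover counting error only. The TKO shares lay between the parental ones, so the groups overlapped. The difference of means, 1.99 percentage points, was smaller than the gap between parental replicates 1 and 2 (two-sided exact permutation p = 1) and was -1.10 without parental replicate 1.

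**Figure D1:**
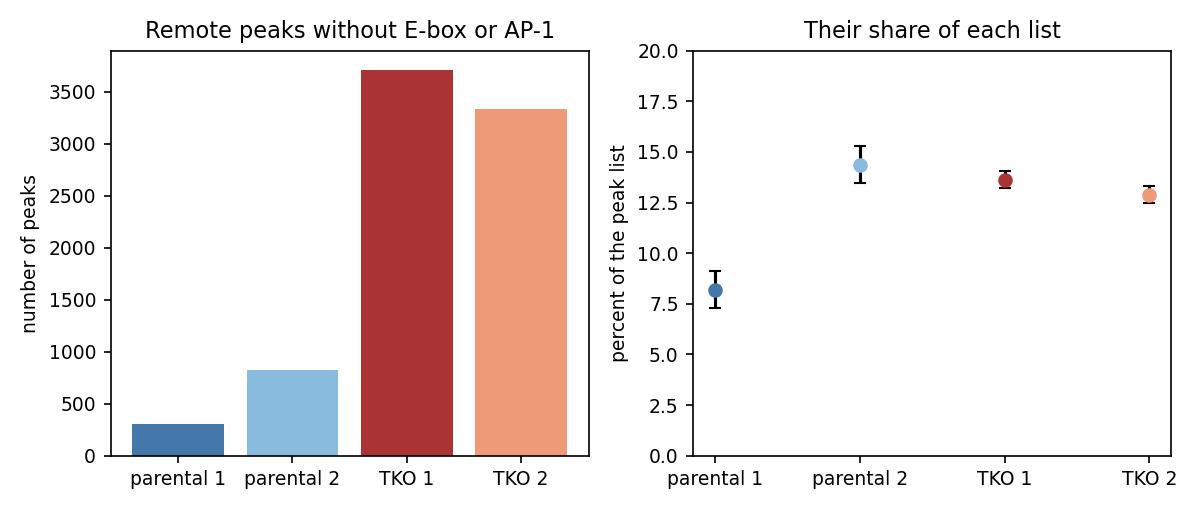
Number of remote peaks without an E-box or AP-1 motif per library (left, bars) and their percent of the library's peak list (right, points with 95% Clopper-Pearson intervals). TKO libraries have 3709 and 3333 such peaks and parental libraries 304 and 821, while the shares overlap between the cell lines, from 8.17% to 14.4%.

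Motifs were less frequent among remote peaks of TKO cells. Of all remote peaks, 36.8% and 33.4% in parental replicates 1 and 2 and 23.5% and 18.8% in TKO replicates 1 and 2 had an E-box or AP-1 motif. The mean was 35.1% ± 2.39 (SD, n = 2) in parental cells and 21.1% ± 3.35 (SD, n = 2) in TKO, and the cell lines did not overlap (exact permutation p = 0.333). With lists of equal length the difference of -14.0 percentage points was -3.70, smaller than the spread. The share with these motifs over all peaks of each list is not given here. A fall over the whole lists therefore cannot be told apart from one at remote peaks.

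The remote part of the genome, 1612 Mb or 56.9% of the sequence examined, was thinly occupied by this class. There were 0.189 and 0.509 members per remote Mb in the parental libraries and 2.30 and 2.07 in TKO. All remote peaks, with or without a motif, stood at 0.298 and 0.765 per remote Mb for the parental line and 3.01 and 2.54 in TKO. All peaks within 50 kb of a TSS, with or without a motif, stood at 2.65 and 3.66 per Mb for the parental line and 18.3 and 17.8 in TKO. By chromosome, the TKO density was highest on chromosome 22, with 5.54 and 5.29 members per remote Mb in replicates 1 and 2, and lowest on chromosome X, with 1.09 and 0.744. Chromosome 19, which has 8.53 remote Mb, had 4.57 and 5.04 in TKO and the highest parental densities, 0.703 and 1.41.

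Most members were within 200 kb of a gene. Over the 4 lists, 48.9% lay 50 to 100 kb from the nearest protein-coding TSS, 31.5% at 100 to 200 kb, 16.5% at 200 to 500 kb and 3.13% beyond that. The closest member was 50005 bp from a TSS (EML6), with a fold of 5.02, and the farthest peak without a motif that missed the rule was 49996 bp away (TRIM43), with a fold of 3.48. Members at 50 to 60 kb had a median fold of 5.82 and 4.99 in parental replicates 1 and 2 and 5.03 and 5.35 in TKO replicates 1 and 2. Peaks without a motif at 40 to 50 kb had 4.90 and 4.74 for the parental line and 4.97 and 5.23 in TKO. The gap was widest in parental replicate 1, where these bins held 31 and 48 peaks.

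Introns held the largest part. The summit lay in an intron for 53.3% and 56.3% of members in parental replicates 1 and 2 and for 53.2% and 52.2% in TKO replicates 1 and 2. Intergenic sequence held 33.2% and 34.7% for the parental line and 37.9% and 38.4% in TKO. Exons of noncoding transcripts held 7.47% to 11.5% in the 4 libraries, and coding sequence and UTR under 1% each. Introns of a gene can lie over 50 kb from its TSS, so an intronic member may be nearest to the TSS of another gene.

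Noncoding genes accounted for part of the class. A TSS of a gene that is not protein-coding lay within 1 kb of the summit for 20.1% and 11.9% of members in the parental libraries and 14.7% and 15.96% in TKO. Remote peaks with a motif had 13.0% and 10.2% for the parental line and 8.86% and 9.87% in TKO. Members were above them in each of the 4 libraries, by 5.20 percentage points on average, and the exact sign-flip permutation test over libraries gave p = 0.125, the smallest it can give. Compared with all other peaks of the list, which include promoters, members were lower by 4.58 points. Members near such a TSS were also richer in GC, with a median of 59.7% and 60.2% in TKO replicates 1 and 2 against 53.2% and 56.2% for the other members.

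Of 2408 member sites found in both TKO libraries, 417 had a noncoding TSS within 1 kb. Long noncoding RNA genes made up 320 of these, ribosomal RNA genes 16, processed pseudogenes 14, microRNA genes 12 and small nuclear RNA genes 11. U1 genes had 8 such sites, of which 3 were found in all 4 libraries. LINC genes had 87, of which 7 were found in all 4 libraries. Over all 2408 sites, 263 were found in all 4 libraries. The U1 count rests on few sites, and differences between these shares were not tested.

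A cluster of members covered the 5S ribosomal RNA array on chromosome 1. The tandem 5S genes are transcribed by RNA polymerase III and give the smallest RNA of the large ribosomal subunit. Their nearest protein-coding TSS is that of RNF187, and 17 member sites found in both TKO libraries spanned 27.5 kb from 228744246 to 228771746. Of these, 15 lay within 1 kb of the TSS of a 5S gene or pseudogene, RNA5S1 and RNA5S12 among them. The fold ran from 2.24 to 7.04 with a median of 4.81 in TKO replicate 1, and from 3.14 to 6.82 with a median of 4.22 in TKO replicate 2. None of the peaks nearest RNF187 in the class came from a parental library. The window of RNA5S6 is shown because it is the strongest of them by mean percentile, with a fold of 5.33 and 6.82 in TKO replicates 1 and 2.
RNA5S6 site, chr1:228757128-228757228: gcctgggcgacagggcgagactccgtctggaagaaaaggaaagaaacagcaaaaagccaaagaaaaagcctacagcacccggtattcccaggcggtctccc
The 20-base words at all 17 summits had a median of at least 15 copies in the reference, so reads cannot be assigned to single 5S genes. How the aligner placed reads with several matches is not given in the sources used here, and its part in these values was not tested.

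Members were richer in GC than the sequence beside them. The median GC content within 100 bp of the summit was 53.2% and 50.7% in parental replicates 1 and 2 and 53.7% and 56.7% in TKO replicates 1 and 2. In windows of the same length 1 kb to either side the medians were 45.3% and 44.5% for the parental line and 45.8% and 47.5% in TKO. GC was higher at the summit than in its flanks for 83.6% and 81.5% of parental members and 85.1% and 88.4% of TKO members.

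**Figure D2:**
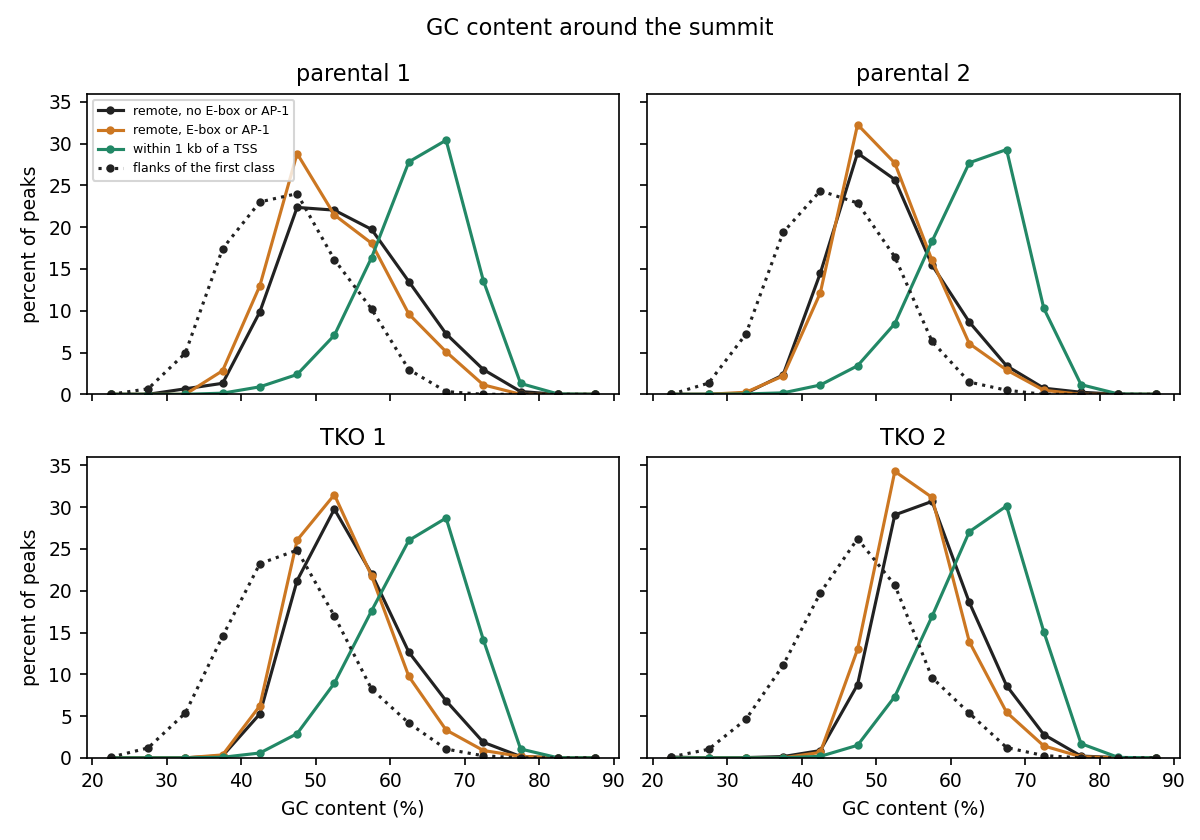
Distribution of GC content within 100 bp of the summit for remote peaks without E-box or AP-1, remote peaks with either motif, peaks within 1 kb of a protein-coding TSS, and the flanks of the first class (dotted), as percent of peaks per bin of 5 percentage points, in each library. The first class sits to the right of its flanks and to the left of promoter peaks, with medians of 50.7% to 56.7% against 63.2% to 64.2% at promoters.

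GC did not separate them from remote peaks with a motif by much. Those had medians of 51.2% and 50.7% for the parental line and 52.7% and 55.2% in TKO, lower than members by 1.12 percentage points on average (exact sign-flip permutation p = 0.25), with no difference in parental replicate 2. Peaks within 1 kb of a protein-coding TSS were far higher, at 64.2% and 63.2% for the parental line and 63.7% and 64.2% in TKO. The median member had 4.5 and 3 CpG dinucleotides in the same window for the parental line and 4 and 5 in TKO, and the median promoter peak 15 to 17. Compared with all other peaks of its list, the class differed in GC by -6.84 percentage points.

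Between the cell lines, the members' median GC was 3.23 percentage points higher in TKO, 55.2% ± 2.11 (SD, n = 2) against 52.0% ± 1.76 (SD, n = 2). The exact permutation test gave p = 0.333, and both TKO values were higher than both parental values. Without TKO replicate 2 the difference was 1.74 and without parental replicate 2 it was 1.99. With lists of equal length it was 5.47. Over all peaks the medians were 61.2% and 57.2% for the parental line and 59.2% and 60.7% in TKO, which overlap. Remote peaks with a motif and the members' flanks, given above, were also higher in both TKO libraries than in both parental ones. The direction was thus not particular to member summits.

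Repeated sequence was measured by the copy number of 20-base words, since the reference is not masked for repeats. A member was counted as repeated when the words within 50 bp of its summit had a median of at least 10 copies in the reference. This held for 9 of 304 and 18 of 821 parental members (2.96% and 2.19%) and for 246 of 3709 and 309 of 3333 TKO members (6.63% and 9.27%). In flanking windows the shares were 11.8% and 11.6% for the parental line and 13.2% and 13.1% in TKO, so summits were less often in repeated sequence than their flanks. Words present in 1 copy prevailed at 90.5% and 93.3% of parental and 85.0% and 82.3% of TKO members. The simple repeat GGAAT was found at least 4 times in the window of 1 member in each TKO list and of none in the parental lists. Other satellite sequence was not counted.

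Repeats were more frequent among members than among remote peaks with a motif, which had 0.565% and 2.18% for the parental line and 3.33% and 4.68% in TKO. The mean difference was 2.57 percentage points, with the same sign in 4 of 4 libraries but only 0.00798 in parental replicate 2 (exact sign-flip permutation p = 0.125, the smallest possible). Repeated members of TKO had a median fold percentile of 36.7 and 34.2, against 41.6 and 40.9 for the other members, and 45.9% and 39.8% of them were overlapped in the other TKO library. The few repeated members of parental cells went the other way in fold percentile, with 88.5 and 64.5 against 42.7 and 45.1, and 77.8% and 33.3% of them were overlapped in the other parental library. The TKO excess of 5.38 percentage points over parental members (exact permutation p = 0.333) was -0.376 with lists of equal length.

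Replicate overlap was then compared. Of parental members, 247 of 304 in replicate 1 (81.2%, 95% confidence interval 76.4% to 85.5%) and 237 of 821 in replicate 2 (28.9%, 25.8% to 32.1%) were overlapped by at least 1 bp in the other parental list, against 76.6% and 49.6% of all peaks of these lists. Of TKO members, 2117 of 3709 in replicate 1 (57.1%, 55.5% to 58.7%) and 2216 of 3333 in replicate 2 (66.5%, 64.9% to 68.1%) were overlapped in the other TKO list, against 71.4% and 74.8% of all peaks. Members were thus below the share of all peaks in 3 libraries and above it in parental replicate 1.

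Remote peaks with a motif were overlapped more often in each library, at 87.6% and 39.3% for the parental line and 60.9% and 78.7% in TKO. The mean difference was -8.20 percentage points, with members lower in 4 of 4 libraries. The exact sign-flip permutation test over the 4 libraries gave p = 0.125, the smallest it allows. Overlap is counted in both directions within a cell line, so the 4 differences come from 2 pairs of libraries and are not independent. That p-value therefore overstates the evidence. With lists of equal length the difference was -8.36 (exact sign-flip permutation p = 0.25). Overlap also rose with strength. Each list was split by fold into 3 groups of equal size, and in TKO replicate 2, 52.5% of members in the lowest group, 66.5% in the middle group and 93.6% in the highest were overlapped, against 63.2%, 77.7% and 95.9% of remote peaks with a motif. In the highest group of TKO replicate 1 the shares were 80.6% for members and 80.2% for remote peaks with a motif. In the highest group of parental replicate 1 they were 84.6% and 98.2%, and in that of parental replicate 2 they were 49.8% and 57.2%. Members were lower in 9 of the 12 groups. The exceptions were the lowest and highest group of TKO replicate 1 and the middle group of parental replicate 1. The part of strength in the difference between the classes was not tested.

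**Figure D3:**
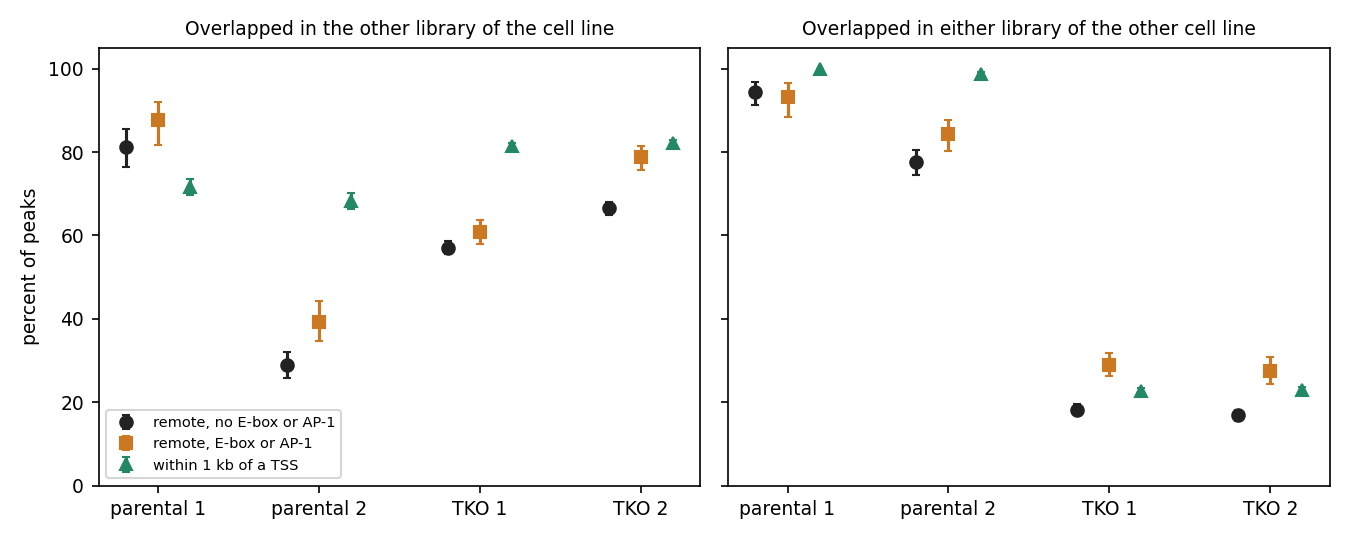
Percent of peaks overlapped by at least 1 bp in the other library of the same cell line (left) and in either library of the other cell line (right), with 95% Clopper-Pearson intervals, for 3 classes of peaks in each library. Remote peaks without a motif lie below remote peaks with one in each library on the left, and on the right 94.4% and 77.6% of parental but 18.3% and 16.9% of TKO members are overlapped.

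Parental members were mostly found again in TKO cells. In parental replicates 1 and 2, 94.4% (91.2% to 96.7%) and 77.6% (74.6% to 80.4%) of members were overlapped in at least 1 TKO library, against 98.6% and 91.3% of all peaks. In the other direction, 18.3% (17.0% to 19.5%) and 16.9% (15.6% to 18.2%) of TKO members were overlapped in at least 1 parental library, against 21% and 20.1% of all peaks. Members were below the share of all peaks in each library, most of all in parental replicate 2.

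Merged over the 4 lists, members formed 5327 sites. Of these, 263 were found in all 4 libraries, 379 in both TKO and 1 parental library, 1766 in both TKO libraries and no parental one, and 14 in both parental libraries and no TKO one. A further 2526 came from 1 TKO library alone and 177 from 1 parental library alone. The parental replicates shared 310 sites, and both TKO libraries had 263 of these (84.8%, 95% confidence interval 80.4% to 88.6%), against 94.8% of sites of all peaks. The TKO replicates shared 2408, and 1766 of these (73.3%, 71.5% to 75.1%) lacked a peak in parental cells, against 72.4% of sites of all peaks. The share was thus near the background, while sites of remote peaks with a motif had 62.1% (58.9% to 65.1%). That difference of 11.3 percentage points was 19.0 without TKO replicate 1, 6.41 without parental replicate 2 and 0.791 with lists of equal length.

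Sites found in all 4 libraries were strong in TKO. Their median fold percentile was 87.0 and 79.2 in TKO replicates 1 and 2, against 44.4 and 43.5 for sites found in TKO only. Presence in the shorter parental lists defines these groups and may itself select strong peaks. The same medians were not taken for other classes. In the parental lists the shared sites stood at 45.9 and 64.1. All members together ranked below the middle of their lists, with medians of 42.9 and 45.8 for the parental line and 41.0 and 39.8 in TKO, lower than remote peaks with a motif by 7.82 points on average (exact sign-flip permutation p = 0.125). With lists of equal length this difference was -2.14 (exact sign-flip permutation p = 0.25). In each list, 4.15% to 6.09% of members were in the top 10% by fold, which was 154 and 145 peaks in TKO replicates 1 and 2.

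At the 263 shared sites the recovered summit reads, scaled to depth, were higher in TKO. The median was 12.9 and 14.9 reads per 10 M in parental replicates 1 and 2 and 28.1 and 29.9 in TKO replicates 1 and 2, and the cell lines did not overlap. The median ratio of a TKO to a parental library was 1.81 to 2.33 over the 4 pairs, and 255 to 260 of the 263 sites were higher in TKO. With reads also divided by the extension length, the median ratio was 1.46 to 1.66, and 223 to 254 sites were higher in TKO. The mean difference was 1.07 on the log2 scale (exact permutation p = 0.333), and 0.67 once reads were also divided by the extension length. A general difference in immunoprecipitation yield would move these values too and cannot be told apart from a difference at the sites. The paper reports higher Myc binding in TKO at most of the sites it clustered, so the direction was not particular to this class. The count of sites higher in TKO was not taken over shared sites of all peaks.

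Variant E-boxes were more frequent at the summits of the class than beside them. CATGTG or CACGCG lay within 50 bp of the summit in 119 of 304 and 230 of 821 parental members (39.1%, 33.6% to 44.9%, and 28.0%, 24.97% to 31.2%) and in 811 of 3709 and 527 of 3333 TKO members (21.9%, 20.5% to 23.2%, and 15.8%, 14.6% to 17.1%). In windows of the same length 1 kb to either side the shares were 9.38% and 6.94% for the parental line and 7.31% and 7.46% in TKO. The excess was positive in 4 of 4 libraries and averaged 18.4 percentage points (exact sign-flip permutation p = 0.125, the smallest possible). The CACGTG E-box itself is absent from members by the rule. Remote peaks with a motif had a variant E-box in 33.9% and 23.8% of parental and 19.1% and 12.7% of TKO peaks, so the words were not particular to members, and the difference between the classes was not tested.

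CATGTG carried most of this. It was found in 34.2% and 25.9% of parental and 18.8% and 12.4% of TKO members, and CACGCG in 5.59% and 2.68% of parental and 3.24% and 3.78% of TKO members. Remote peaks with a motif showed the same order, with CATGTG in 32.8% and 22.8% of parental and 17.3% and 11.3% of TKO peaks. Promoter peaks showed the opposite order, with CACGCG in 14.8% and 13.6% and CATGTG in 6.89% and 6.79% of parental promoter peaks. Matches were concentrated at the summit: in parental replicate 1, 16.4% of members had a variant E-box centred in the 25 bp beside the summit, against 1.64% in the outermost 25 bp of the profile.

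**Figure D4:**
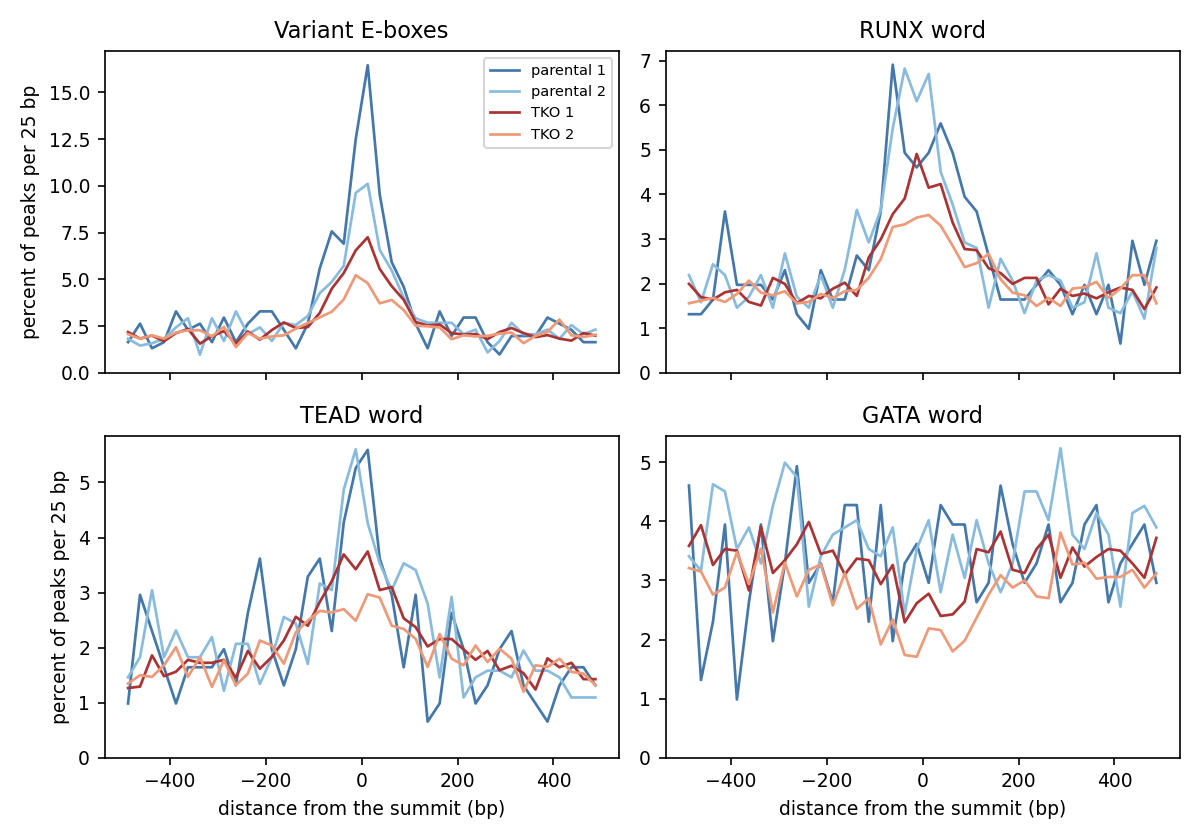
Percent of remote peaks without E-box or AP-1 that have a match centred in each bin of 25 bp, against the distance from the summit, for variant E-boxes and the RUNX, TEAD and GATA words in each library. Variant E-boxes, RUNX and TEAD words rise at the summit in each library and GATA dips there in the TKO libraries; the variant E-box reaches 16.4% per bin in parental replicate 1 and 5.22% in TKO replicate 2.

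The share with a variant E-box rose with the strength of the peak. From the lowest to the highest of the 3 fold groups it went from 29.1% to 55.4% in parental replicate 1, from 22.3% to 40.4% in parental replicate 2, from 17.8% to 31.5% in TKO replicate 1 and from 10.9% to 26.8% in TKO replicate 2. In each library the middle group lay between them. Members with a variant E-box had a median fold percentile of 49.2 and 53.1 for the parental line and 50.8 and 54.3 in TKO, against 36.9 and 42.4 and 38.9 and 37.6 for members without one.

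Members of TKO cells had the motif less often than members of parental cells, 18.8% ± 4.28 (SD, n = 2) against 33.6% ± 7.87 (SD, n = 2), with no overlap between the cell lines (exact permutation p = 0.333). Without parental replicate 1 the difference of -14.7 percentage points was -9.18. Promoter peaks also had variant E-boxes less often in TKO, in 13.2% and 12.1% of peaks against 21.2% and 19.9% for the parental line. Remote peaks with a motif did so too, with 19.1% and 12.7% against 33.9% and 23.8%. The lower share in TKO was thus not particular to members. The difference for members changed when the lists were shortened, which also leaves only the most significant peaks of the longer lists. List length, peak strength and cell line cannot be told apart here. With 3719 peaks in each list the shares were 39.1% and 33.4% for the parental line and 39.3% and 33.0% in TKO, a difference of -0.154. By site, 38.0% (32.1% to 44.2%) of those found in all 4 libraries had a variant E-box, 24.8% (20.5% to 29.5%) of those found in both TKO and 1 parental library, and 16.7% (15.0% to 18.5%) of those found in both TKO libraries only. Of the 14 parental-only sites, 6 had one.

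**Figure D5:**
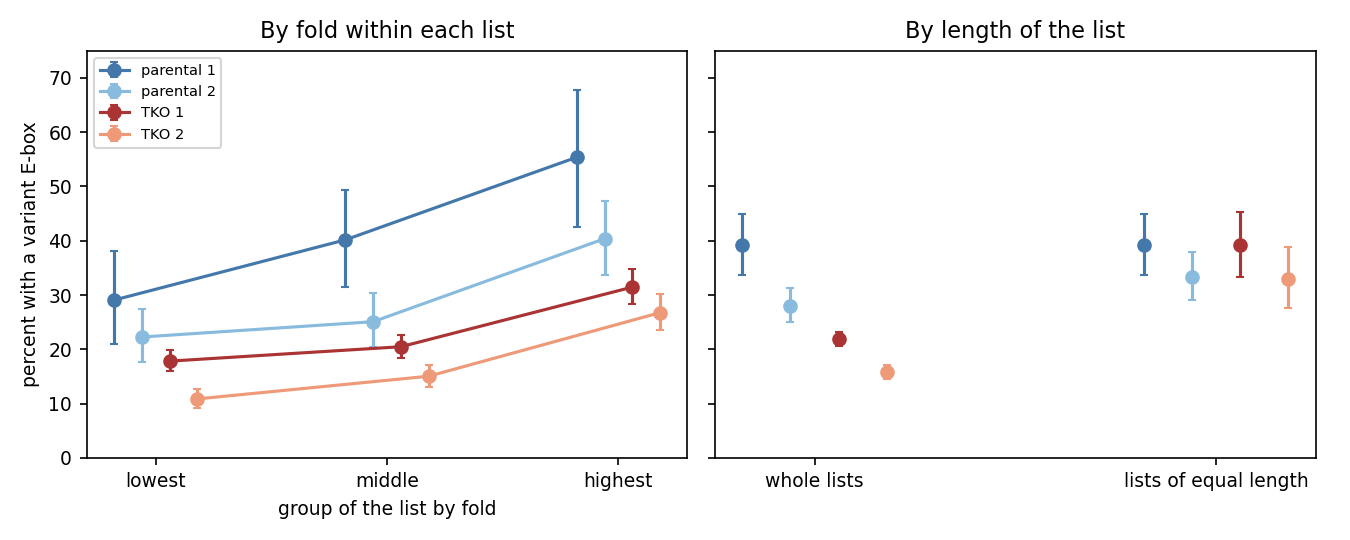
Percent of remote peaks without CACGTG or AP-1 that have a variant E-box (CATGTG or CACGCG) within 50 bp of the summit, by group of fold within each list (left) and for whole lists and lists of 3719 peaks (right), with 95% Clopper-Pearson intervals. The share rises with fold in each library, and the gap between the cell lines in whole lists, 39.1% and 28.0% against 21.9% and 15.8%, closes in lists of equal length.

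Other short motifs were counted in the same way on both strands, against the same flanking windows. The TEAD word GGAATG was found in 16.8% and 15.96% of parental and 12.6% and 10.3% of TKO members, against flanks of 5.12% to 6.15% in the 4 libraries. The RUNX word TGTGGT was found in 18.4% and 21.9% of parental and 15.2% and 12.5% of TKO members, against flanks of 6.09% to 6.92%. TEAD factors act downstream of YAP, and RUNX factors are common at enhancers of epithelial and blood cells. The mean excess was 8.24 percentage points for TEAD and 10.5 for RUNX, positive in 4 of 4 libraries each. Remote peaks with a motif were also above their flanks, with TEAD in 9.09% to 11.3% and RUNX in 11.2% to 17.5% of peaks in the 4 libraries.

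The SP/KLF word GGGCGG, a GC-rich promoter element, was also more frequent than in the flanks, at 7.57% and 5.48% of parental and 7.28% and 9.78% of TKO members (mean excess 4.91 points). The ETS word CCGGAAGT and the CRE word TGACGTCA were rare, at no more than 1.32% and 0.658% of members, and each was above its flanks in 4 of 4 libraries. In parental replicates 1 and 2 only 4 and 3 members had the ETS word and 2 and 2 the CRE word. GATAA (GATA) and CCAAT (NFY) were less frequent at the summits than in the flanks in 4 of 4 libraries, by 3.23 and 4.68 points on average. TGTTTAC (forkhead) and TTGCNNAA (C/EBP) did not go one way in all libraries. Of these 9 words, 7 had the same sign in 4 of 4 libraries. Each of the 7 had an exact sign-flip permutation p of 0.125, the smallest possible, and an adjusted p of 0.161 by the Benjamini-Hochberg method over the 9. With flanks at 500 bp the GATA difference was -1.66 (exact sign-flip permutation p = 0.375), and the SP/KLF difference was 2.97. With lists of equal length the CRE difference had an exact sign-flip permutation p of 0.25. With TSS of all gene types the ETS difference was 0.0334 points. GATAA and CCAAT are rich in A and T and GGGCGG in G and C, and GC content was higher at the summits than in the flanks, whose part in these differences was not tested.

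A variant E-box, a TEAD word or a RUNX word was present in 58.9% and 53.3% of parental and 41.3% and 32.8% of TKO members. The remaining 125 and 383 parental and 2179 and 2239 TKO members had none of them. These were richer in GC, with medians of 55.7% and 52.2% for the parental line and 54.7% and 57.2% in TKO, against 51.7% and 49.8% and 52.7% and 55.7% for members with at least 1 of the words. Their fold percentile was lower in each library, with medians of 36.6 to 39.7 against 46.0 to 48.2.

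The local background and the distance to centromeres did not separate members from remote peaks with a motif in one direction. The local background was at least 3 times that of the genome at 63.2% and 64.8% of parental and 55.6% and 52.2% of TKO members, against 62.7% and 63.6% and 64.6% and 58.2% of remote peaks with a motif. Members were thus lower in TKO and slightly higher in parental cells, and the mean difference of -3.32 percentage points had an exact sign-flip permutation p of 0.5. Within 5 Mb of an assembly gap of at least 1 Mb, as at centromeres, lay 5.26% and 5.97% of parental and 7.36% and 8.67% of TKO members, with a mean difference of 0.907 points from remote peaks with a motif (exact sign-flip permutation p = 0.375).

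Other peaks lay close to members in TKO cells. Another peak of the same list lay within 10 kb of the summit for 46.1% and 44.8% of TKO members and for 14.1% and 21.7% of parental members. For remote peaks with a motif it was 39.0% and 40.3% in TKO and 9.60% and 20.6% in parental cells. A peak with an E-box or AP-1 motif lay within 10 kb of 14.2% and 11.5% of TKO members and of 3.95% and 7.92% of parental members. List length and cell line cannot be told apart in these shares.

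The gene nearest to a member site was then counted over the 2408 sites found in both TKO libraries. Of 19739 protein-coding genes, 1250 (6.33%) were nearest to at least 1 such site. MYC itself and RNF187 had the most, 17 each. The sites nearest MYC lay on chromosome 8 between 128680876 and 129189507, at 56.2 to 439 kb from the TSS, and 15 of the 17 were within PVT1, the long noncoding RNA gene beside MYC. Of these sites, 3 were found in all 4 libraries and 10 in TKO only, and their median fold was 5.38 and 4.85 in TKO replicates 1 and 2.

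ZMIZ1, which encodes a transcriptional coactivator, had 16 sites over 441 kb of chromosome 10, 2 of them in all 4 libraries. BCOR, a corepressor of BCL6, had 13 over 634 kb of chromosome X. MCFD2 had 11 on chromosome 2, of which 6 lay in TTC7A and 5 in LINC01119. CLXN had 10 on chromosome 8. NTMT1, a methyltransferase of protein N termini, had 10 over 83.5 kb of chromosome 9, 5 of them in LINC00963. ZFP36L2, an RNA-binding protein that promotes mRNA decay, had 10 on chromosome 2, and PLXNA4, a semaphorin receptor, had 9 on chromosome 7, all within the gene. The highest fold among the genes named here was at MCFD2, 14.2 and 16.1 in TKO replicates 1 and 2.

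Of 35 genes of mesenchymal and basal breast cancer, the type to which MDA-MB-231 belongs, 10 were nearest to at least 1 such site (28.6%, against 6.33% of all protein-coding genes). CD44, a cell surface receptor for hyaluronan, had 3, at 55.3 to 108 kb from its TSS and with a median fold of 6.38 and 5.15 in TKO replicates 1 and 2, and TGFB2 and TP63 had 2 each. EGFR, FN1, FOXC1, ITGA6, LOXL2, ZEB1 and ZEB2 had 1 each. None of these sites was found in all 4 libraries, against 263 of all 2408 sites found in both TKO libraries. They are too few to tell this from the share over all sites. Of 84 cytosolic ribosomal protein genes, whose promoters Myc is known to bind, 5 were nearest to a site (5.95%), RPLP1 with 5 sites, and of 390 olfactory receptor genes 2 were (0.513%). The number of sites a gene can be nearest to depends on the remote sequence around it, whose part in these shares was not tested.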

How the data were processed

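Myc ChIP-seq peak lists of 4 libraries, 2 per cell line, were analysed. The 2 input samples have no file here. Per the submitters' processing notes, Novoalign 3.08.02 and MACS2 2.1.1.20160309 were used with hg19, and peaks were called per library. The deposited columns held a fold ratio at the summit, −log10 p- and q-values, and a score equal to 10 times the −log10 q-value, all made by the authors' peak caller. The lowest −log10 q-value in the deposited lists was 2.03 to 2.07. Summit reads and depth were recovered from the deposited fold and −log10 p-value, with the narrowest peak as the extension length and an assumed genome of 2700000000 bases. TSS came from GENCODE 44 on GRCh37. The members, motifs and gene lists were chosen with earlier results of these data known.

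Peaks were merged into sites by 1 bp of overlap. TKO was compared with parental cells by two-sided exact permutation tests over libraries, and members with other classes by two-sided exact sign-flip permutation tests over the 4 libraries. Nothing says that the libraries came from separate cultures, so p-values measure only the spread between them, which may be technical. The reference is not masked for repeats, so the planned repeat measure was not run and the copy number of 20-base words, chosen after the files were seen, replaced it. Named sites were the 5 of highest mean fold percentile in all 4 libraries, in both TKO libraries only and in both parental libraries only. Named genes were also the 10 nearest to the most sites found in both TKO libraries and genes of the mesenchymal and basal list nearest to at least 3. One such site and one such gene are not reported here. Further sites were named after their values were seen. Alternatives covered TSS distance and type, motif window, peak strength, list length, overlap, flanks and each library left out. Scripts were tested on simulated data and used Python 3.11.15, numpy 2.4.6, pandas 2.3.3, scipy 1.17.1, pysam 0.24.0, matplotlib 3.10.9 and samtools 1.23.1.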

Additional observations from a re-analysis of the deposited data

Results flagged for a closer look

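The C/EBP word TTGCNNAA was less frequent at summits than in flanks in TKO cells, by -0.270 and -1.23 percentage points in replicates 1 and 2, and more frequent in parental cells, by 0.822 and 2.31. The forkhead word TGTTTAC went the same way, with -0.391 and -0.405 points in TKO and 0.658 and 0.0609 in parental cells. The share of peaks with a raised local background, members minus remote peaks with a motif, was -8.97 and -5.98 points in TKO and 0.446 and 1.21 in parental cells. These 3 measures were picked because their signs were opposite in the 2 cell lines, and the difference between the cell lines was not tested. The forkhead shares in parental replicate 2 were close, at 1.83% of members against 1.77% in flanks. TKO replicate 2 also had 11 peaks on the mitochondrial genome, which lay outside every comparison, and the other 3 lists had none.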

How the results depend on the processing

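Of 340 values, 264 kept their direction and stayed near the reported value, 60 moved and 16 turned direction. In no case was the cause tested. With lists of equal length, the ratio of member counts was 0.725, and TKO minus parental was -2.82 points for the members' share, -3.70 for the motif share, 5.47 for GC, -0.154 for variant E-boxes and -0.376 for repeats. The difference between members and remote peaks with a motif was then -2.14 for fold percentile, -1.16 for local background, -0.345 for pericentromeres and 0.791 for TKO-only sites, and the variant E-box excess over flanks was 28.5.

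With TSS of all gene types, the share difference was 0.172, replicate overlap -4.42, GC 0.560, fold percentile -5.03, local background -5.93 and TKO-only sites 5.29. A TSS distance of 25 kb gave a share difference of 4.19, pericentromeres 1.51 and forkhead 0.0461, and 100 kb gave a share difference of 0.713. A motif window of 100 bp gave 2.04 for pericentromeres. A −log10 q-value of at least 5 gave 0.312 for pericentromeres. A fold of at least 5 gave a share difference of 1.15, a GC difference between cell lines of 4.98, local background -6.46 and pericentromeres -0.683. Against all other peaks, GC was -6.84, local background 2.24, pericentromeres 0.447, noncoding TSS -4.58 and TKO-only sites 1.48. Forkhead was 0.0201 without pericentromeric peaks and 0.117 with flanks at 500 bp, where C/EBP was -0.107. Dividing by extension length gave a log2 difference of 0.67 in summit reads.

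Leaving out each library in turn gave a range of 4.29 (without parental replicate 1) to 11.6 (without parental replicate 2) for the ratio, -1.10 to 5.09 (same libraries) for the share, 1.74 (without TKO replicate 2) to 4.73 (without TKO replicate 1) for GC between cell lines, and -20.3 to -9.18 (without parental replicates 2 and 1) for variant E-boxes. The range was -4.83 to -1.44 (without parental replicate 2 and TKO replicate 1) for local background, 0.137 to 1.53 (without TKO replicate 2 and parental replicate 1) for pericentromeres, 6.41 to 19.0 (without parental replicate 2 and TKO replicate 1) for TKO-only sites, -0.245 to 0.109 for forkhead and -0.226 to 0.956 for C/EBP.

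With the replicate number as a replicate block, the ratio was 7.04, and the differences were 1.99 for the share, -14.0 for the motif share, 3.23 for GC, -14.7 for variant E-boxes and 5.38 for repeats. No call changed. The numbers name libraries only, and deviations of same-numbered libraries had a correlation of 0.0434 over 263 sites. Precision was lowest in the parental lists, with 304 and 821 members, although these libraries were deeper.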
